A study of Mus musculus with 12 samples.

Results

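The expression of 35 genes that mark astrocytes or are induced when astrocytes become reactive was followed in mouse brain with and without Plat, the gene of tissue-type plasminogen activator, a secreted protease. The genes were taken by symbol from a fixed list, and all 35 were found among the 27131 rows of the deposited table. A mean of at least 0.5 FPKM over the 12 libraries was needed for testing, and 33 of the 35 reached it, among 16203 genes tested in all. FPKM counts fragments scaled by transcript length and library size, so levels of different genes can be set side by side on this scale. Of the genes nearest the limit, Gbp2 passed with a mean of 0.937 FPKM, whereas Lcn2 at 0.162 FPKM and Steap4 at 0.152 FPKM did not.

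The 3 groups held 4 libraries each, from mice aged 6 weeks for which the labels name no treatment. WT mice were wild-type C57BL/6J animals bought from a supplier. Both other groups were Plat-/- mice of C57BL/6 background kept by the laboratory, from independent strains that the sample titles call Old and New, so origin goes with genotype and these cannot be told apart. The labels name cerebral cortex as the tissue, whereas the protocol describes whole brains without the olfactory bulb and cerebellum, and markers of striatum and thalamus were present in every library. The number of mice is given as 4 for each genotype, the sex is not given in the sources used here, and p-values measure the spread between these libraries.

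Astrocytes are the glial cells that take up glutamate and potassium released by neurons, convert glutamate to glutamine, and line blood vessels with end-feet rich in the water channel Aqp4. They are coupled to one another by gap junctions of connexins, and they secrete proteins that act on synapses. After injury or inflammation they become reactive: Gfap and Vim filaments increase and genes such as Serpina3n and Lcn2 are induced. Astrocytes can also take up tissue-type plasminogen activator from the extracellular space. Several of the listed genes, among them Vim, Cd44, Clu, Cst3, Glul, Id3, Mt1 and Timp1, are also made by other brain cells.

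Plat itself stood at 6.93 to 9.83 FPKM in WT, at 1.39 to 2.09 FPKM in Old and at 2.77 to 3.15 FPKM in New, lower in all 8 knockout libraries than in any WT library. The libraries WT 4 and Old 1 differed from the remaining 10. Their Spearman correlation with each other over genes was 0.964, and their median correlation with the other 10 was 0.929 and 0.933, against 0.963 to 0.970 among those 10. Genes with a transcript GC content under 40% lay at a median of -0.71 in WT 4 and -0.55 in Old 1 relative to the 12-library mean on the log2 scale, against 0.042 to 0.18 in the others. Genes of at least 60% GC lay at 0.63 and 0.70 in these libraries, against -0.19 to -0.083 in the others. The Y-linked gene Ddx3y was above 1 FPKM in 4 libraries, at 6.52 FPKM in WT 4, 8.22 in Old 1, 15.4 in Old 4 and 13.4 in New 1, so every group held libraries with and without it. A limma fit of all 12 libraries with a term for the 4 also passed 0 of 33 astrocyte genes in each of the 4 comparisons. In that fit 0.0062% to 0.019% of all tested genes passed, and the part of sex in other values was not tested. Without WT 4 and Old 1, only Old 4 and New 1 held Ddx3y and no WT library did. No term for it was fitted in that setting. The main differences of the list are given with all 12 libraries and without WT 4 and Old 1.

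No astrocyte gene passed the test in any comparison. On log2(FPKM + 0.1), with limma across all tested genes and Benjamini-Hochberg adjusted p-values at a threshold of 0.05, 0 of 33 passed in Old against WT, where 4 genes or 0.0247% of all tested genes did. The count was likewise 0 of 33 in New against WT (background 0.00617%), in Old against New (0.0123%) and in the mean of both strains against WT (0.0123%). At an unadjusted p under 0.05 the counts of astrocyte genes were again 0 in all 4 comparisons, against 1.67%, 2.22%, 1.14% and 2.22% of all tested genes in the same order. The smallest adjusted p of any of the 33 was 1.00, 0.965, 0.985 and 1.00 by limma.

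The directions were mixed. In Old against WT 20 of 33 genes were higher by value, with a median difference of 0.018 on the log2 scale beside 0.031 for all tested genes. In New against WT 19 of 33 were higher, with a median of 0.018 beside 0.057. In Old against New 16 of 33 were higher, with a median of -0.0078 beside -0.027. For the mean of both strains against WT the count was 18 of 33, with a median of 0.0098 beside 0.044. Of all tested genes 65.3%, 65.5%, 42.2% and 67.2% were higher in the same order. These comparisons share libraries, so their directions are not independent of one another.

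Leaving out WT 4 and Old 1 made the estimates tighter without bringing any gene past the adjusted threshold. In the 10 remaining libraries limma passed 0 of 33 genes in Old against WT (background 0.0494%), New against WT (0.0123%), Old against New (0.037%) and the mean of both strains against WT (0.0185%). At an unadjusted p under 0.05 there were 2 of 33 genes in Old against WT, where 6.06% of all tested genes passed. The count was 1 of 33 in New against WT (background 10.8%), 2 of 33 in Old against New (4.82%) and 2 of 33 for the mean of both strains (9.12%). These were Id3, Slc7a10, Mt1, Serpina3n and Gfap, described with their groups below. The counts of higher genes became 13, 16, 16 and 14 of 33, beside 49.1%, 47.8%, 52.7% and 48.5% of all tested genes.

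The intervals give the range of differences for each gene on this scale, without adjustment over genes. With all 12 libraries the unadjusted 95% interval from limma lay within 0.5 of zero on the log2 scale for 25 of 33 genes in Old against WT and for 22 of 33 in New against WT, compared with 65.1% and 57.0% of all tested genes. Without WT 4 and Old 1 it did so for 32 of 33 genes in both comparisons, compared with 79.6% and 81.4%. All tested genes include many of low level and these shares were not matched for level, so they do not show the list to be steadier. The exceptions were Gfap in Old against WT, with an interval of -0.0097 to 0.52, and Timp1 in New against WT, with an interval of -0.23 to 0.50.

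**Figure D1:**
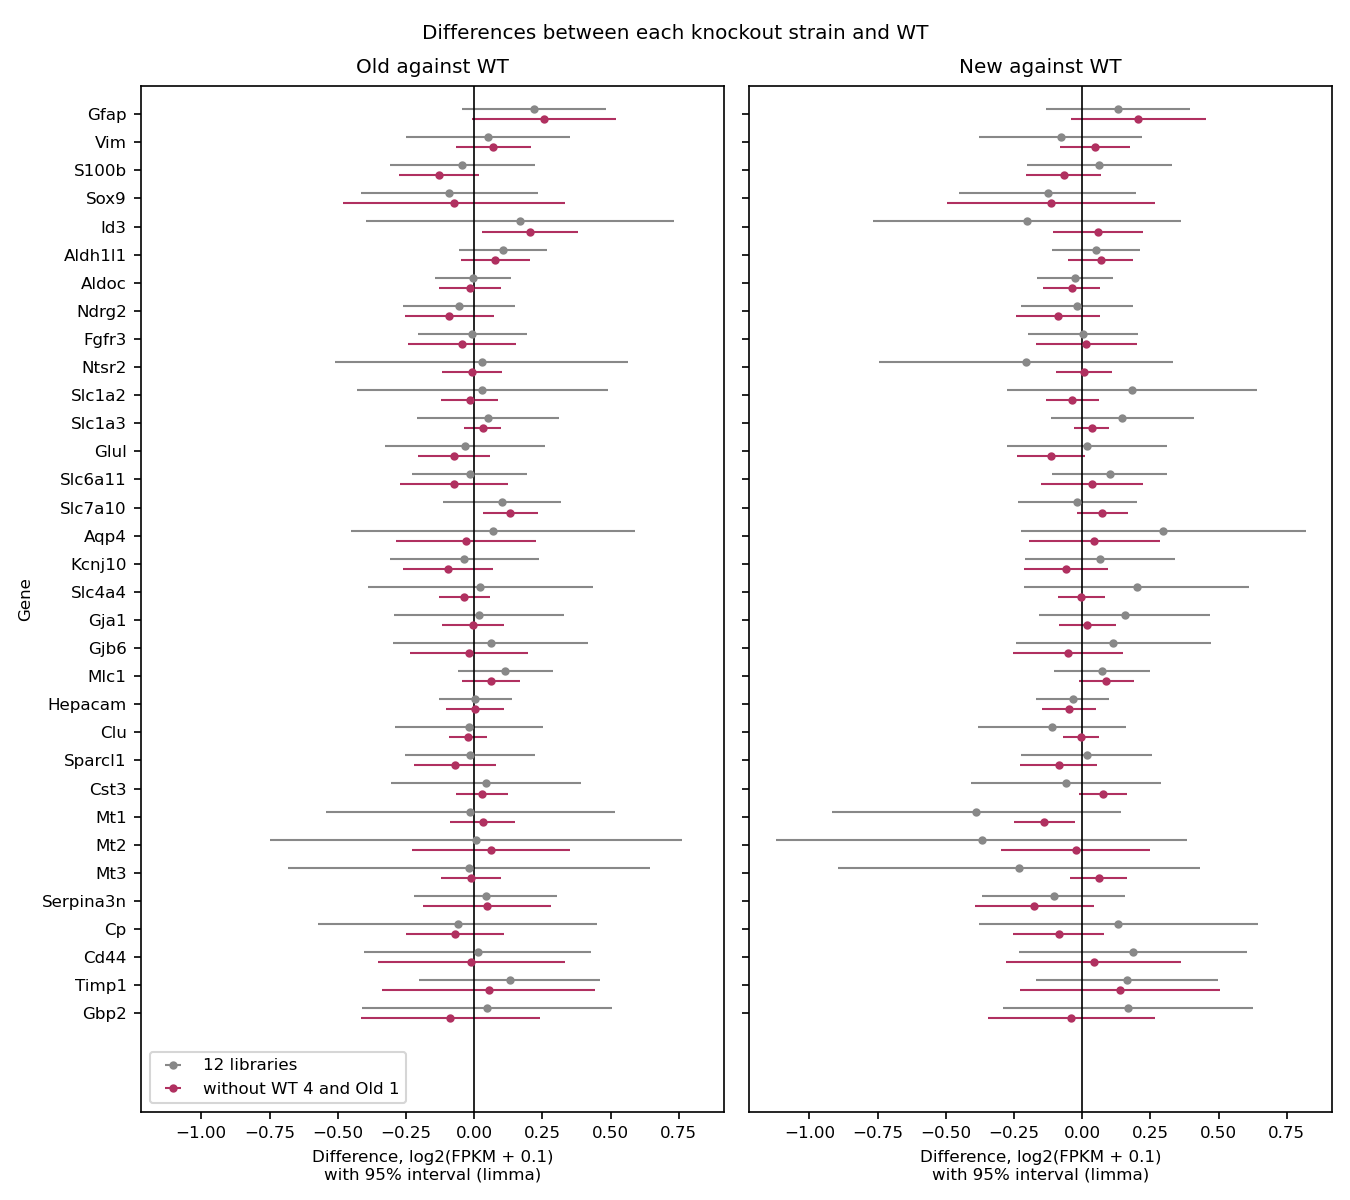
Difference of each of the 33 tested genes in Old against WT (left) and New against WT (right), on log2(FPKM + 0.1), with the 95% interval from limma; grey is the fit on 12 libraries and red the fit without WT 4 and Old 1. The intervals of most genes narrow without these libraries, and the grey estimates of Mt1 and Mt2 at about -0.39 and -0.37 in New against WT move to -0.14 and -0.024.

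The list covered a wide span of levels. Over the 12 libraries 10 genes averaged at least 100 FPKM, 15 lay from 10 to under 100 FPKM, 7 from 1 to under 10 FPKM, and Gbp2 was the 1 tested gene below 1 FPKM. The highest means were those of the protease inhibitor Cst3 at 409 FPKM, the matricellular protein Sparcl1 at 395 FPKM, the glutamine synthetase Glul at 370.2 FPKM and the glutamate transporter Slc1a2 at 356 FPKM. These 4 neighbours in the order differ by less than their spread over the 12 libraries. Without WT 4 and Old 1 the order was Sparcl1 at 407 FPKM, Glul at 386 FPKM, Slc1a2 at 382 FPKM and Cst3 at 380 FPKM. Summed over the 35 genes, the libraries held 3012 to 3441 FPKM, with the highest sums in Old 1 and WT 4. In the 10 other libraries 26 of 33 genes had a coefficient of variation under 10%, with a median of 6.48%. The same median was 7.43% for all tested genes, which include many of low level, and 4.83% for all genes of at least 8 FPKM. With WT 4 and Old 1 included, 9 of 33 stayed under 10% and the median was 12.9%.

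Among the filament and identity genes, Gfap encodes the intermediate filament protein by which reactive astrocytes are usually recognised. It stood at 31.9, 31.2, 33.5 and 39.7 FPKM in WT 1 to 4, at 42.9, 31.96, 43.9 and 40.4 FPKM in Old 1 to 4, and at 34.9, 34.6, 43.3 and 36.4 FPKM in New 1 to 4. The WT and Old ranges overlapped through Old 2, which lay below WT 3 and WT 4, whereas Old 1, Old 3 and Old 4 lay above every WT library. By its mean New lay between, with New 3 apart from the other 3 New libraries. The mean of 4 libraries was 34.1 ± 3.86 FPKM for WT, 39.8 ± 5.44 FPKM for Old and 37.3 ± 4.09 FPKM for New (± SD). The difference was 0.22 (SE 0.12) in Old against WT and 0.13 (SE 0.12) in New against WT on the log2 scale. By the exact two-sided permutation test of 4 against 4 libraries p was 0.114 and 0.286, where 0.0286 is the smallest p possible.

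Without WT 4 and Old 1, the 3 WT values for Gfap lay below all 7 knockout values except that of Old 2, which at 31.96 FPKM was below WT 3. The mean of 3 libraries was then 32.2 ± 1.16 FPKM for WT and 38.8 ± 6.16 FPKM for Old (± SD). The difference for the mean of both strains against WT was then 0.23 (SE 0.10) on the log2 scale, with an unadjusted p of 0.0452 and an adjusted p of 0.536 by limma. In bulk tissue, more or fewer cells of a type and more or less RNA per cell cannot be told apart. Its coefficient of variation in the 10 libraries was 13.1%, beside a median of 6.48% for the list.

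Vim encodes a filament protein that assembles with Gfap. It stood at 11.3, 10.6, 10.7 and 15.5 FPKM in WT 1 to 4, at 15.4, 11.3, 12.3 and 10.7 FPKM in Old 1 to 4, and at 10.3, 11.5, 11.5 and 11.6 FPKM in New 1 to 4. The 2 highest values were those of WT 4 and Old 1, and the other 10 libraries of all 3 groups overlapped over 10.3 to 12.3 FPKM. Differences from WT were 0.050 (SE 0.14) in Old and -0.079 (SE 0.14) in New on the log2 scale, and 0.071 (SE 0.061) and 0.047 (SE 0.057) without these 2.

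Aldh1l1, a folate enzyme used as a marker of astrocytes throughout the brain, varied by 4.99% over the 10 libraries (coefficient of variation). It stood at 9.26, 8.54, 8.74 and 9.31 FPKM in WT, at 10.6, 9.20, 9.92 and 8.92 FPKM in Old and at 9.20, 8.69, 9.50 and 9.74 FPKM in New. The ranges of the 3 groups overlapped. Differences from WT were 0.11 (SE 0.073) in Old and 0.049 (SE 0.073) in New on the log2 scale, with limma intervals of -0.055 to 0.27 and -0.11 to 0.21. In the fit on 10 libraries they were 0.078 (SE 0.057) and 0.068 (SE 0.053).

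Id3, an inhibitor of helix-loop-helix transcription factors, stood at 9.93, 8.35, 9.67 and 19.1 FPKM in WT 1 to 4, at 19.9, 11.5, 11.2 and 9.61 FPKM in Old 1 to 4 and at 9.86, 9.48, 9.68 and 9.68 FPKM in New 1 to 4. WT 4 and Old 1 were about 2.05-fold and 1.85-fold above the mean of the other 3 libraries of their group, and the rest overlapped. With all 12 libraries Old lay 0.17 (SE 0.26) above WT on the log2 scale. Without them it lay 0.21 (SE 0.078) above WT, with an unadjusted p of 0.0273 and an adjusted p of 0.780 by limma.

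The other identity genes did not pass the test in either setting. In the 10 libraries the calcium-binding protein S100b ranged over 32.1 to 39.1 FPKM, the brain aldolase Aldoc over 206 to 236 FPKM and the growth factor receptor Fgfr3 over 13.9 to 18.1 FPKM. Ndrg2, an abundant cytoplasmic protein of astrocytes, ranged over 162 to 203 FPKM and the neurotensin receptor Ntsr2 over 32.3 to 36.7 FPKM. Sox9, the transcription factor of astrocyte nuclei, was the most variable of these at 5.59 to 9.48 FPKM, with its lowest value in New 3. Differences from WT for these 6 genes ran over -0.091 to 0.027 in Old and -0.21 to 0.063 in New on the log2 scale, and over -0.13 to -0.0084 and -0.11 to 0.016 without WT 4 and Old 1.

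Slc1a2 (GLT-1), the main glutamate transporter of the forebrain, was among the most abundant genes of the list. It stood at 385, 409, 367 and 211 FPKM in WT 1 to 4, at 238, 386, 396 and 366 FPKM in Old 1 to 4 and at 382, 375, 375 and 377 FPKM in New 1 to 4. WT 4 and Old 1 were far below the other 10 libraries, which overlapped across all 3 groups, and New was the tightest group at 377 ± 3.20 FPKM (SD, n = 4). Slc1a3 (GLAST) stood at 77.9, 82.7, 78.3 and 58.1 FPKM in WT, at 62.6, 81.8, 82.8 and 79.4 FPKM in Old and at 80.6, 82.00, 80.9 and 82.5 FPKM in New. Here too WT 4 and Old 1 were lowest and the groups overlapped.

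Differences from WT were 0.030 (SE 0.21) in Old and 0.18 (SE 0.21) in New for Slc1a2, and 0.050 (SE 0.12) and 0.15 (SE 0.12) for Slc1a3, on the log2 scale. Without WT 4 and Old 1 the Slc1a2 differences were -0.016 and -0.036 and those of Slc1a3 were 0.031 and 0.034. The limma intervals then ran over -0.037 to 0.10 for Slc1a3 in Old and -0.030 to 0.10 in New.

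Slc7a10, a transporter of small neutral amino acids such as serine and glycine, stood at 9.56, 8.83, 8.95 and 11.8 FPKM in WT 1 to 4, at 11.9, 9.78, 10.3 and 9.87 FPKM in Old 1 to 4 and at 9.31, 9.69, 9.38 and 10.02 FPKM in New 1 to 4. The 2 highest libraries were WT 4 and Old 1. With them the difference in Old against WT was 0.10 (SE 0.10). Without them Old lay 0.13 (SE 0.045) above WT on the log2 scale, with an unadjusted p of 0.0158 and an adjusted p of 0.741 by limma. For the mean of both strains the difference was 0.10 (SE 0.038), with an adjusted p of 0.488 by limma. The glutamine synthetase Glul ranged over 361 to 429 FPKM in the 10 libraries, and the GABA transporter Slc6a11 over 37.4 to 46.8 FPKM. Differences from WT were -0.033 and 0.018 for Glul and -0.016 and 0.10 for Slc6a11, in Old and New in that order, on the log2 scale. Leaving out WT 4 and Old 1, they were -0.073 and -0.11 for Glul and -0.074 and 0.036 for Slc6a11.

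The genes of water, ion and junctional transport had the same dependence on these libraries. With all 12 libraries 6 of 7 were higher by value in Old and 6 of 7 in New, whereas without WT 4 and Old 1 the counts were 2 of 7 and 3 of 7, with 0 passing limma in either case. The shares of all tested genes that were higher were 65.3% and 65.5% with 12 libraries, and 49.1% and 47.8% without these 2. The shares passing limma were 0.0247% and 0.00617%, and 0.0494% and 0.0123%, in the same order. Aqp4, the water channel of the end-feet, stood at 27.6, 28.6, 30.8 and 14.3 FPKM in WT 1 to 4, at 18.4, 23.1, 29.9 and 33.1 FPKM in Old 1 to 4 and at 30.2, 30.3, 27.6 and 31.5 FPKM in New 1 to 4. The lowest values were those of WT 4 and Old 1, followed by Old 2, and the groups overlapped. The difference from WT was 0.070 (SE 0.24) in Old and 0.30 (SE 0.24) in New on the log2 scale. Without the 2 libraries it was -0.029 (SE 0.11) and 0.044 (SE 0.11).

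Gja1, connexin 43, stood at 53.96, 53.8, 56.4 and 37.4 FPKM in WT, at 39.7, 50.02, 56.1 and 57.7 FPKM in Old and at 56.9, 55.1, 54.1 and 55.6 FPKM in New. Again the low values were those of WT 4 and Old 1, and the other libraries overlapped, with differences from WT of -0.0047 (SE 0.050) in Old and 0.019 (SE 0.047) in New without these 2. Gjb6, connexin 30, ranged over 15.1 to 19.5 FPKM in the 10 libraries, the potassium channel Kcnj10 (Kir4.1) over 40.5 to 50.5 FPKM and the bicarbonate cotransporter Slc4a4 over 31.99 to 35.3 FPKM. The junctional membrane protein Mlc1 and its partner Hepacam (GlialCAM) ranged over 24.2 to 28.1 FPKM and 21.7 to 24.5 FPKM. For these last genes WT 4 did not stand out, at 26.2 and 22.5 FPKM, while Old 1 at 31.8 FPKM was highest for Mlc1. Differences from WT for these 5 genes ran over -0.036 to 0.11 in Old and -0.034 to 0.20 in New on the log2 scale, and over -0.10 to 0.060 and -0.058 to 0.089 without WT 4 and Old 1.

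**Figure D2:**
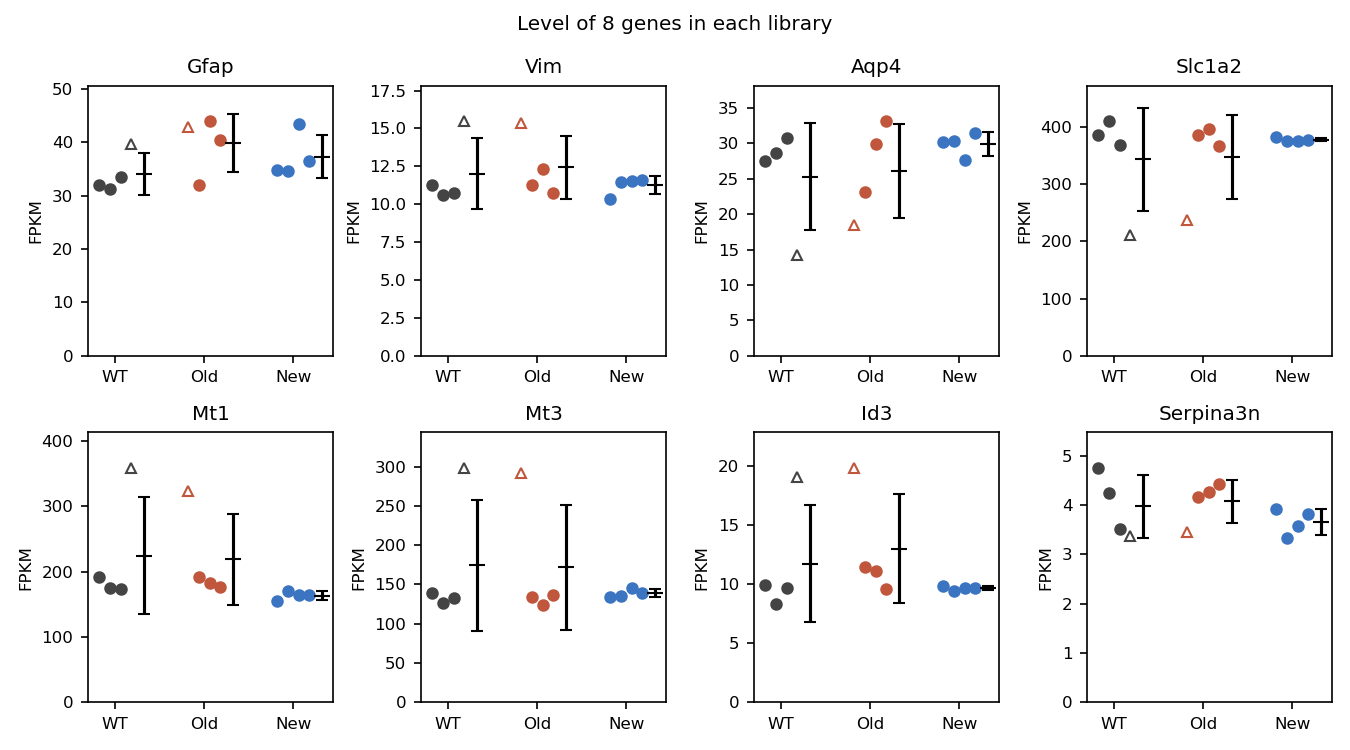
Level in FPKM (linear axis from 0) of 8 of the genes in each of the 12 libraries by group; open triangles are WT 4 and Old 1, filled circles the other 10, and bars the mean and SD of 4 libraries. The triangles lie above the circles for Vim, Mt1, Mt3 and Id3 and below them for Aqp4 and Slc1a2, while Gfap and Serpina3n overlap.

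The 3 secreted proteins clusterin (Clu), hevin (Sparcl1) and cystatin C (Cst3) were among the most abundant of the list. In the 10 libraries Clu ranged over 192 to 204 FPKM, Sparcl1 over 369 to 437 FPKM and Cst3 over 357 to 394 FPKM, with coefficients of variation of 1.96%, 5.79% and 3.57%. WT 4 and Old 1 lay at 539 and 572 FPKM for Cst3 and at 266 and 265 FPKM for Clu, above all others, and at 317 and 353 FPKM for Sparcl1, below all others. Differences from WT for the 3 genes ran over -0.019 to 0.042 in Old and -0.11 to 0.017 in New on the log2 scale, and over -0.072 to 0.028 and -0.087 to 0.077 without these 2 libraries.

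The metallothioneins bind zinc and copper. Mt1 and Mt2 are induced by metals and glucocorticoids, and Mt3 is the form most restricted to the brain. The 3 genes lie together on the plus strand of chromosome 8 in the order Mt3 (chr8:94152607-94154146), Mt2 (chr8:94172664-94173568) and Mt1 (chr8:94179082-94180327), within 27721 bases (GENCODE M21, mm10). Their promoters are shown because Mt1 is the gene of the list whose groups did not overlap and because all 3 stood apart in WT 4 and Old 1. Each sequence runs from 250 bases before to 50 bases after the RefSeq start (GRCm38.p6, plus strand), and capitals mark the core of the metal response element, TGCACNC or TGCGCNC, on either strand. The windows are chr8:94178839-94179138 for Mt1, chr8:94172368-94172667 for Mt2 and chr8:94152357-94152656 for Mt3.
Mt1: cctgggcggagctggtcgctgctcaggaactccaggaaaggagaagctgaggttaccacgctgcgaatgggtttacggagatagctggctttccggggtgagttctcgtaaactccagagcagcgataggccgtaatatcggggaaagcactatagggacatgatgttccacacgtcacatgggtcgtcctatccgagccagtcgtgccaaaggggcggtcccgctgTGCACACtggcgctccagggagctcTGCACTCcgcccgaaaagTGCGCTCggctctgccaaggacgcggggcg
Mt2: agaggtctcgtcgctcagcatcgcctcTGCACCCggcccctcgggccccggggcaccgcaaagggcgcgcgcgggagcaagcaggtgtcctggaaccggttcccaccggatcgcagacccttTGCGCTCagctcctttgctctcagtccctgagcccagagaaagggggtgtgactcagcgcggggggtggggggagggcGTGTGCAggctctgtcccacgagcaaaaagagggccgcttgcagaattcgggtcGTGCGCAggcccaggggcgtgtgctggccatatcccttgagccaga
Mt3: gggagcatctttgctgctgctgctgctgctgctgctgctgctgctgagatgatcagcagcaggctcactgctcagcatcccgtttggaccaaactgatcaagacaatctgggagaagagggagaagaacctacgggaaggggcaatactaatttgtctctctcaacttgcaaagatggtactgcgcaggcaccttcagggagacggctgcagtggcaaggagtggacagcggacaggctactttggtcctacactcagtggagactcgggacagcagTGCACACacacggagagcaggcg

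The Mt1 window held 3 matches, all on the printed strand, the Mt2 window 4, of which 2 were on the opposite strand, and the Mt3 window 1. No matches overlapped one another. Among 32851 promoter windows of the same length, 25.7% held at least 1 match, 1.97% at least 3 and 0.517% at least 4. A match describes the letters of the window only.

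Mt1 stood at 192, 175, 173 and 359 FPKM in WT 1 to 4, at 323, 192, 183 and 177 FPKM in Old 1 to 4 and at 155, 170.2, 164 and 165 FPKM in New 1 to 4. All 4 New libraries lay below all 4 WT and all 4 Old libraries, although New 2 at 170.2 FPKM and WT 3 at 173 FPKM were close, and WT 4 and Old 1 were far above the rest. Groups that do not overlap were found for 2.6% of all tested genes in New against WT and for 1.79% in Old against New, in either direction. Mt1 was the 1 astrocyte gene of 33 with such groups in each of these comparisons, and 0 of 33 had them in Old against WT, where the background was 1.1%. The counts for the list are thus near the background.

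The difference of Mt1 was -0.39 (SE 0.24) in New against WT and 0.37 (SE 0.24) in Old against New on the log2 scale. The exact permutation p, not adjusted over genes, was 0.0286 in both, the smallest that 4 against 4 libraries can give. Groups that do not overlap always give this p, so it adds nothing to the lack of overlap. The adjusted p was 0.965 and 0.985 by limma. Without WT 4 and Old 1 these differences were -0.14 (SE 0.049) and 0.17 (SE 0.049), with unadjusted p-values of 0.0195 and 0.00681 and adjusted p-values of 0.389 and 0.962 by limma. Summed levels of 12 glucocorticoid response genes were 78.6 to 127 FPKM in WT, 107 to 127 FPKM in Old and 95.9 to 155 FPKM in New. The lowest sum was that of WT 4, the library with the highest Mt1. Without WT 4 and Old 1 the sums ran over 94.3 to 155 FPKM. The part of these genes in the Mt1 levels was not tested.

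Mt2 stood at 107, 88.7, 73.4 and 230.1 FPKM in WT 1 to 4, at 207, 96.4, 90.4 and 90.4 FPKM in Old 1 to 4 and at 80.1, 97.3, 93.8 and 78.5 FPKM in New 1 to 4. Mt3 stood at 139, 127, 133 and 298 FPKM in WT, at 291, 134, 124 and 136 FPKM in Old and at 134, 135, 145 and 139.6 FPKM in New. For both genes WT 4 and Old 1 were above every other library and the other 10 overlapped across the groups. In New against WT the difference of Mt2 was -0.37 (SE 0.34) with 12 libraries and -0.024 (SE 0.12) without these 2, and that of Mt3 was -0.23 (SE 0.30) and 0.060 (SE 0.046), on the log2 scale.

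Most of the genes induced in reactive astrocytes were low in every group. Lcn2, a secreted lipocalin, stood at 0, 0, 0.0367 and 0.357 FPKM in WT 1 to 4, at 0.245, 0.247, 0 and 0.0616 FPKM in Old 1 to 4 and at 0.317, 0.221, 0.391 and 0.0649 FPKM in New 1 to 4, and was not tested. Steap4, a metalloreductase, ranged over 0.0792 to 0.207 FPKM and was not tested either. Serpina3n, a serine protease inhibitor and one of the most widely induced reactive genes, stood at 4.76, 4.24, 3.51 and 3.38 FPKM in WT 1 to 4, at 3.45, 4.16, 4.26 and 4.42 FPKM in Old 1 to 4 and at 3.91, 3.33, 3.57 and 3.81 FPKM in New 1 to 4. The groups overlapped, with WT 4 and New 2 lowest and WT 1 highest.

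Differences of Serpina3n from WT were 0.043 (SE 0.12) in Old and -0.10 (SE 0.12) in New on the log2 scale. Without WT 4 and Old 1, Old lay 0.22 (SE 0.10) above New, with an unadjusted p of 0.0461 and an adjusted p of 0.962 by limma. Serpina3n belongs to a cluster of near-identical copies in the mouse, so its level is uncertain where reads were divided among them. In the 10 libraries the ferroxidase ceruloplasmin (Cp) ranged over 3.31 to 4.04 FPKM, the hyaluronan receptor Cd44 over 1.08 to 1.66 FPKM, the metalloproteinase inhibitor Timp1 over 1.22 to 2.03 FPKM and the interferon-induced GTPase Gbp2 over 0.846 to 1.19 FPKM. Differences from WT for these 4 genes ran over -0.061 to 0.13 in Old and 0.13 to 0.19 in New on the log2 scale, and over -0.087 to 0.053 and -0.086 to 0.14 without WT 4 and Old 1.

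**Figure D3:**
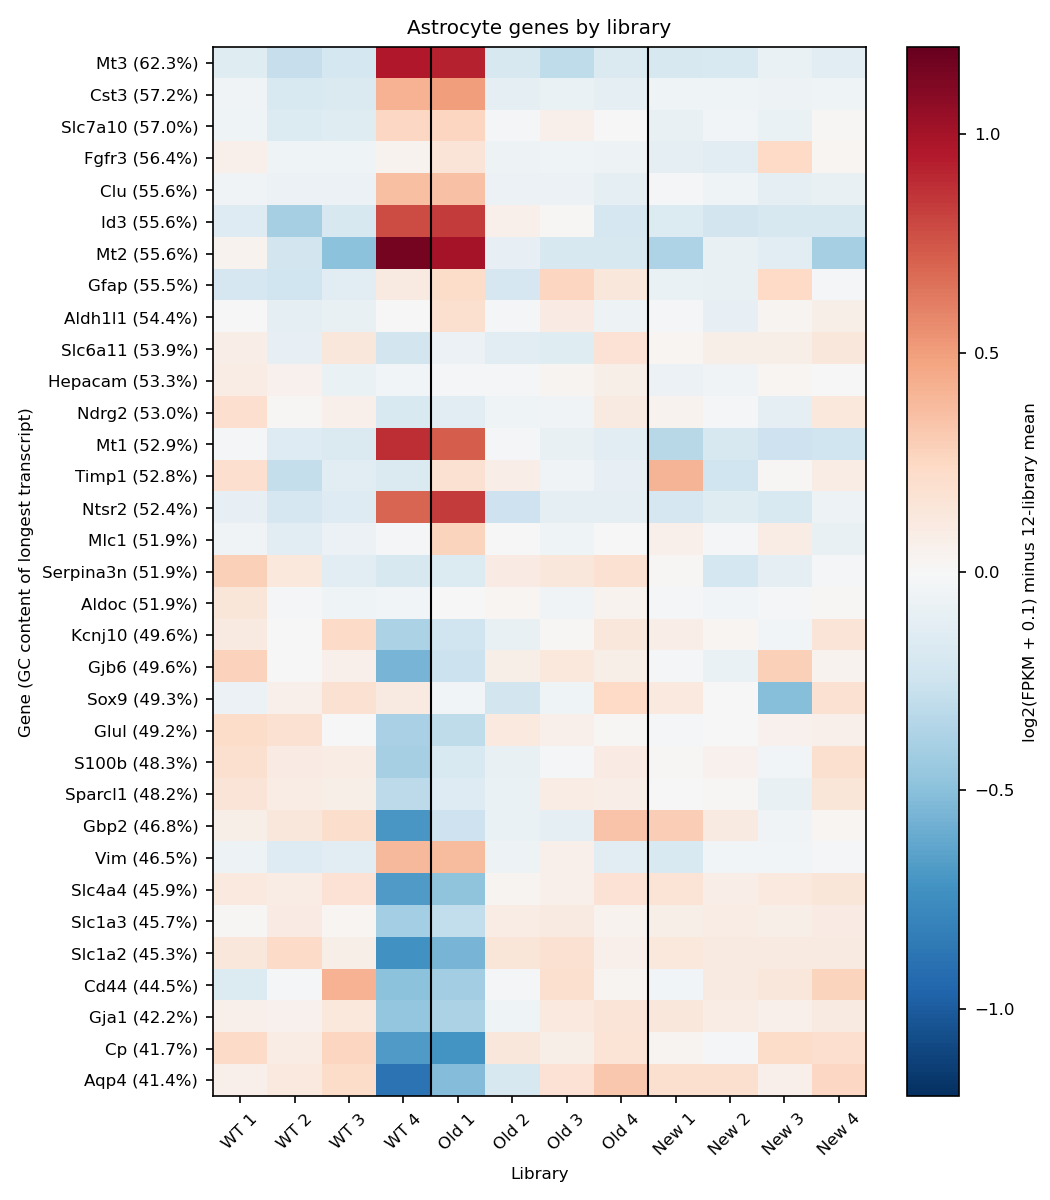
Deviation of each of the 33 tested genes from its own 12-library mean on log2(FPKM + 0.1), with libraries as columns and genes ordered by the GC content of their longest transcript, highest at the top. WT 4 and Old 1 share their colours, red mostly at the top and blue mostly at the bottom, while Vim at 46.5% GC is red in both.

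The astrocyte genes also moved together in WT 4 and Old 1. Both libraries lay above the other 10 for 9 of 33 genes and below them for 14 of 33, together 23 of 33. Of all tested genes 60.2% lay outside the other 10 in both libraries on the same side, so the count for the list is near the background. The 9 higher genes were Vim, Id3, Ntsr2, Slc7a10, Clu, Cst3, Mt1, Mt2 and Mt3. Against the other 3 Old libraries, Old 1 was 2.24-fold higher for Mt2, 2.21-fold for Mt3 and 2.00-fold for Ntsr2. The 14 lower genes included both glutamate transporters, Glul, Aqp4, Kcnj10, Slc4a4 and both connexins. Against WT 4, the other 3 WT libraries were 2.03-fold higher for Aqp4, 1.88-fold for Cp and 1.83-fold for Slc1a2.

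These directions went with the composition of the transcripts. Of 9 genes under 47% GC, 8 were below the other 10 libraries in both WT 4 and Old 1 and 1, Vim, was above. Of 8 genes with at least 55% GC, 6 were above and 0 below, and of the 16 between, 2 were above and 6 below. Across the 33 genes Pearson's r between GC content and the deviation from the other 3 libraries of the group was 0.762 for WT 4 and 0.780 for Old 1, beside 0.493 and 0.492 across 15891 tested genes with a GC value. With log2 transcript length r was -0.712 and -0.748, beside -0.113 and -0.102. The deviations in WT 4 and in Old 1 had an r of 0.973 with each other, beside 0.437 across all genes. All tested genes include many of low level, and none of these values of r was matched for level. These are descriptions across genes, which are not independent replicates: the 33 points share the same 2 libraries, and the shorter transcripts among them are also the richer in GC. Whether GC content, length or the mice account for the deviations was not tested.

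**Figure D4:**
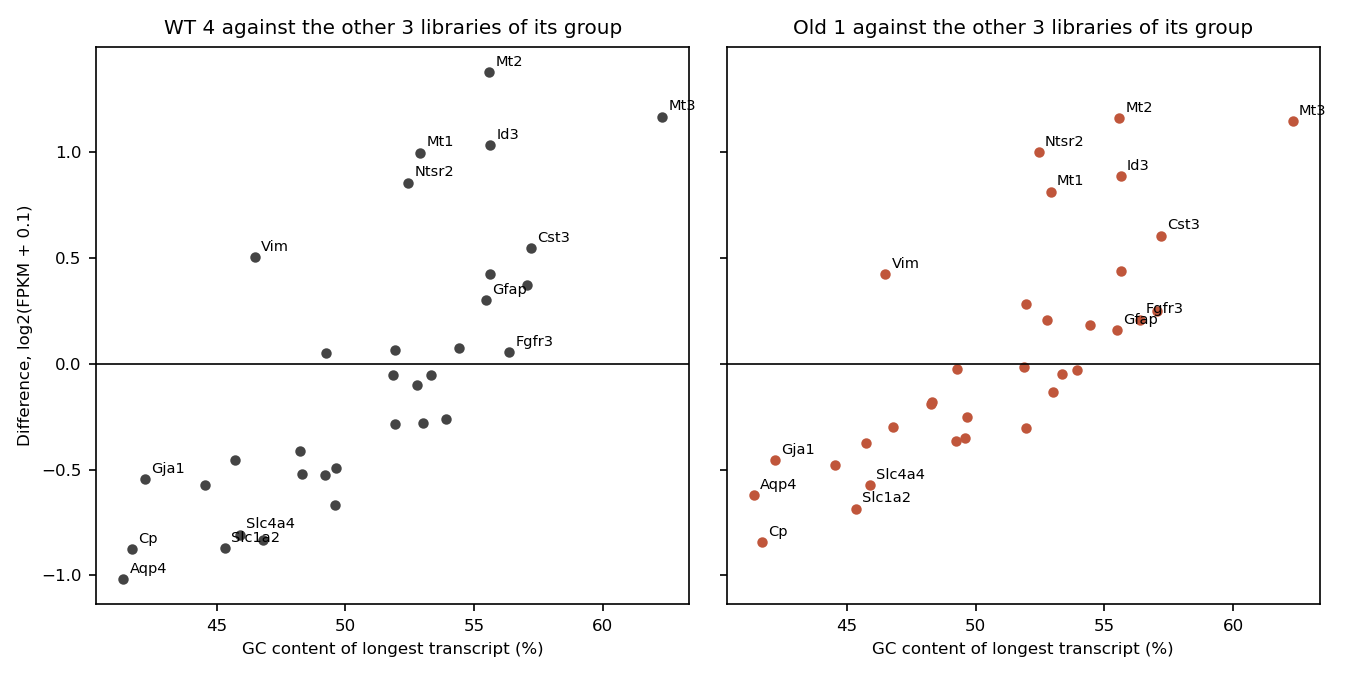
Deviation of WT 4 (left) and Old 1 (right) from the other 3 libraries of their group on log2(FPKM + 0.1), against the GC content of the longest transcript in percent, 1 point for each of the 33 tested genes. Points climb from Aqp4 and Cp at the lower left to Mt3 at the upper right, and Vim lies above the others of similar GC content.

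Genes with a shared role were also compared across the 10 libraries other than WT 4 and Old 1, since with these included the libraries form separate clusters. None of 10 pairs passed a permutation test after Benjamini-Hochberg adjustment over the 10. The closest was Glul with Slc1a2, which act in succession on glutamate, with r = 0.627 (permutation p = 0.0521, adjusted 0.325) and rho = 0.673 (permutation p = 0.0388, adjusted 0.382), and r was 0.463 without WT 1 and WT 2. Mt1 and Mt2 had r = 0.603 (permutation p = 0.0649, adjusted 0.325) and rho = 0.491 (permutation p = 0.153, adjusted 0.382), and r was 0.329 without WT 1 and New 1. Gfap and Vim had r = 0.50 (permutation p = 0.142, adjusted 0.355) and rho = 0.527 (permutation p = 0.122, adjusted 0.382), which rested on Old 3 and New 3, since r was -0.056 without them.

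A wider set of 44 other astrocyte genes, all of which were tested, gave the same counts of 0 passing limma in every comparison. With all 12 libraries 0.00617% to 0.0247% of all tested genes passed. On the log2 scale their median difference was 0.016 in Old against WT, beside 0.031 for all tested genes, with 25 of 44 higher by value. In New against WT it was 0.048 beside 0.057, with 27 of 44 higher. Of all tested genes 65.3% and 65.5% were higher in these comparisons. In the other 10 libraries the medians were 0.00068 and -0.0012, with 23 and 22 of 44 higher, beside 49.1% and 47.8% of all tested genes. Of 31 other genes reported in reactive astrocytes, 19 were tested and 0 passed limma in any comparison, with 9 higher and 10 lower in Old against WT and 12 higher and 7 lower in New against WT. In the other 10 libraries the counts were 10 higher and 9 lower, and 11 higher and 8 lower. Again 0 passed, beside 0.0494% and 0.0123% of all tested genes.

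Within that reactive set, 1 of 19 tested genes had an unadjusted limma p under 0.05 in Old against WT, where 1.67% of all tested genes did. H2-T23, a class I histocompatibility gene, stood at 0.701, 0.749, 0.642 and 0.910 FPKM in WT 1 to 4, at 0.515, 0.384, 0.428 and 0.467 FPKM in Old 1 to 4 and at 0.624, 0.586, 0.615 and 0.606 FPKM in New 1 to 4. All Old libraries were below all New and all New below all WT. Groups that do not overlap were found for 1.1% of all tested genes in Old against WT, 2.6% in New against WT and 1.79% in Old against New. The difference in Old against WT was -0.63 (SE 0.15) on the log2 scale, with an unadjusted p of 0.00146 and an adjusted p of 1.00 by limma. In the fit on 10 libraries it was -0.60 (SE 0.12), with an adjusted p of 0.440 by limma. Its reads are shared with closely related class I genes, so this value is uncertain.

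Markers of other cells were present in every library, and 0 of the lists had a gene at 0 throughout. Summed over 10 genes each, microglial markers stood at 119.7 to 137 FPKM in WT, 120.3 to 139.6 FPKM in Old and 124 to 131 FPKM in New. Oligodendrocyte markers stood at 1542 to 1704 FPKM in WT, 1717 to 1875 FPKM in Old and 1775 to 1951 FPKM in New. Of these 10 of 10 were higher by value in New than in WT, or 9 of 10 without WT 4 and Old 1. In Old 9 of 10 were higher in both settings. An unadjusted limma p under 0.05 was found for 5 and 6 of 10 in New and for 3 and 4 of 10 in Old. The shares of all tested genes were 2.22% and 10.8%, and 1.67% and 6.06%. After adjustment 0 passed. In New against WT, with 12 libraries and without these 2, 7 of 10 and 10 of 10 microglial markers were higher. The counts were 8 and 5 of 10 for neuron markers and 2 and 1 of 8 for ependyma and choroid plexus. Of all tested genes 65.5% and 47.8% were higher. Whether these counts bear on the astrocyte values was not tested.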

How the data were processed

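Expression came as a single deposited table of FPKM, made by the authors, with 1 column per library and 0 columns left unused. The tools were FastQC, Bowtie2 2.1.0 with TopHat2 2.0.9, and Cufflinks with Cuffdiff 2.1.1, on mm10, per the submitters' processing notes. No annotation, strand setting or normalization between libraries is stated in the sources used here. RNA that passed an integrity threshold was polyA-selected, per the labels' protocols, and prepared with a kit that keeps no strand, whereas a label calls the libraries rRNA-depleted. FPKM holds no counts, so depth is unknown and no counting error is given; precision rests on 4 libraries per group.

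Values were analysed as log2(FPKM + 0.1), which understates differences of low genes, for genes averaging at least 0.5 FPKM, in 1 limma 3.58.1 fit of all 12 libraries (trended empirical Bayes, R 4.3.3), tested on simulated data. Permutation tests were exact and two-sided, over all 70 assignments of 4 against 4 libraries, and correlations used 100000 permutations (Python 3.11.15, scipy 1.17.1). Alternatives changed the pseudocount, filter, scaling, GC trend, covariates, weights and libraries. Transcript GC content and coordinates came from GENCODE M21 (all 35 genes matched by symbol, and 98.1% of tested genes had a GC value), and promoters from RefSeq. The genes and lists were chosen with earlier results of these data known. All tested genes of the list are named, with library values for the main markers and for those with an unadjusted p under 0.05 or groups that do not overlap; of other lists, at most 4 with the smallest p were to be named.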

Additional observations from a re-analysis of the deposited data

Results flagged for a closer look

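In 22 of 105 combinations of gene and group, 1 library lay far from the other 3 of its group, by a gap that chance alone gives in about 1 of 20 groups of 4. Most were values of WT 4 or Old 1. Of all tested genes 60.2% lay outside the other 10 libraries in both, on the same side. How often such gaps occur over all tested genes was not counted. In WT 4 the highest values of the group were Vim at 15.5 FPKM (the other 3 at 10.6 to 11.3), Id3 at 19.1 (8.35 to 9.93), Ntsr2 at 62.4 (33.2 to 35.8), Clu at 266 (197 to 201), Mt1 at 359 (173 to 192) and Mt3 at 298 FPKM (127 to 139). Lcn2 at 0.357 FPKM in WT 4 was also highest, with the other 3 at 0 to 0.0367. The lowest values of the group in WT 4 were Slc4a4 at 19.5 FPKM (33.3 to 35.3) and Gja1 at 37.4 FPKM (53.8 to 56.4).

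In Old 1 the highest values of the group were Fgfr3 at 17.0 FPKM (the other 3 at 14.6 to 14.8), Ntsr2 at 68.5 (32.3 to 35.3), Mlc1 at 31.8 (25.5 to 26.4), Clu at 265 (192 to 197) and Cst3 at 572 FPKM (373 to 383). The metallothioneins followed, with Mt1 at 323 FPKM (177 to 192), Mt2 at 207 (90.4 to 96.4) and Mt3 at 291 FPKM (124 to 136). The lowest values in Old 1 were Slc1a3 at 62.6 FPKM (79.4 to 82.8), Gjb6 at 13.3 (16.8 to 17.5) and Cp at 2.005 FPKM (3.54 to 3.78). Transcript GC content was 41.7% for Cp, 42.2% for Gja1 and 62.3% for Mt3; its part was not tested.

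Outside these 2 libraries, Aldoc was highest in WT 1 at 235.5 FPKM (206 to 210.2 in the other 3) and Vim was lowest in New 1 at 10.3 FPKM (11.5 to 11.6).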

How the results depend on the processing

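The count of astrocyte genes passing limma was 0 in all 24 alternatives for each comparison between groups and in all 23 for the mean of both strains, where a fit on only the compared groups gives the same groups and no separate value. Of all tested genes 0.0041% to 0.086% passed in these fits, so a count of 0 in the list is near the background. The lowest adjusted p of any gene under any alternative was 0.642 in Old against WT, 0.389 in New against WT, 0.792 in Old against New and 0.478 for the mean of both strains. The median difference of the list ran over -0.028 to 0.035, -0.041 to 0.067, -0.034 to 0.023 and -0.034 to 0.058 in that order. Signs of uncalled differences were not stable: 6, 12, 16 and 5 of 33 genes kept their sign in every alternative, and 9, 15, 10 and 14 changed it without WT 4 and Old 1. A filter at a mean of 1 FPKM left out Gbp2, and no filter added Lcn2 and Steap4. No paired analysis was possible because replicate numbers in the titles name WT libraries only and pair none across groups. Depth is unknown, so the low reactive genes are limited by the spread between libraries alone.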

Other observations

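Astrocyte genes outside the list included 3 with the smallest unadjusted p in New against WT. With 12 libraries 0 of 44 had an unadjusted limma p under 0.05 in this comparison, and 4 of 44 did without WT 4 and Old 1. Of all tested genes 2.22% and 10.8% did. Ttyh1, a tweety family membrane protein, stood at 20.8, 20.04, 20.5 and 13.8 FPKM in WT 1 to 4, at 18.6, 21.6, 20.8 and 21.05 FPKM in Old 1 to 4 and at 21.9, 22.1, 22.2 and 21.8 FPKM in New 1 to 4. All 4 New libraries were above all 4 WT libraries, with WT 4 the lowest, and the difference was 0.25 (SE 0.12) on the log2 scale, with an adjusted p of 0.965 by limma. Gpr37l1, a receptor of astrocytes, stood at 33.2, 33.4, 31.9 and 34.1 FPKM in WT, at 40.4, 34.7, 33.8 and 34.8 FPKM in Old and at 35.2, 35.9, 37.1 and 34.9 FPKM in New. By mean Old lay above WT as well, at 35.9 beside 33.2 FPKM, with overlap. The WT and New groups did not overlap either, as for 2.6% of all tested genes, and their difference was 0.11 (SE 0.069), with an adjusted p of 0.965 by limma. Mmd2 stood at 31.1, 33.1, 33.9 and 25.8 FPKM in WT, at 29.9, 35.8, 35.6 and 33.6 FPKM in Old and at 35.2, 33.9, 36.6 and 33.98 FPKM in New. WT and New did not overlap, by a narrow margin, with a difference of 0.18 (SE 0.094). By mean Old lay at 33.7 FPKM, between WT at 31.0 and New at 34.9 FPKM. Without WT 4 and Old 1 the differences in New against WT were 0.11 (SE 0.025) for Ttyh1, 0.12 (SE 0.030) for Gpr37l1 and 0.094 (SE 0.040) for Mmd2, with adjusted p-values of 0.323, 0.323 and 0.449 by limma.

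Slc15a2, a peptide transporter of astrocytes, had the smallest p of the wider set in Old against New. It stood at 5.01, 4.82, 4.81 and 4.04 FPKM in Old 1 to 4 and at 6.30, 6.64, 6.83 and 5.31 FPKM in New 1 to 4, with all Old libraries below all New libraries and WT spanning both at 5.13, 5.83, 7.09 and 4.02 FPKM. The difference was -0.42 (SE 0.15) on the log2 scale, with an unadjusted p of 0.0193 and an adjusted p of 0.985 by limma. Serping1, an inhibitor of complement C1 reported in reactive astrocytes, stood at 3.25, 2.97, 3.02 and 3.18 FPKM in WT, at 2.61, 2.15, 2.76 and 3.22 FPKM in Old and at 2.64, 2.66, 2.78 and 2.79 FPKM in New. By mean Old lay below WT as well, at 2.68 beside 3.10 FPKM, with overlap. All New libraries were below all WT libraries, with a difference of -0.19 (SE 0.11) and an adjusted p of 0.965 by limma. Groups that do not overlap were found for 1.79% of all tested genes in Old against New and 2.6% in New against WT. In the fit without WT 4 and Old 1 the difference of Slc15a2 in Old against New was -0.45 (SE 0.12) and that of Serping1 in New against WT was -0.17 (SE 0.11), with adjusted p-values of 0.962 and 0.594 by limma.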
